A study of Mus musculus with 6 samples.

Results

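The genes described here are the Ifi genes of the mouse, named for their induction by interferon, in pancreatic carcinoma cells treated with the DNA methyltransferase inhibitor decitabine (5-aza-2′-deoxycytidine, DAC). Their probes were chosen by array name alone, as those named IFI directly followed by a digit, plus MNDA. This gave 17 of the 45281 probes of the array, which stand for 10 of its 28903 genes. The array lists them as IFI202B, IFI203, IFI204, IFI205, MNDA, IFI27, IFI30, IFI35, IFI44 and IFI47, and apart from IFI27 they are given here by their current symbols, MNDA being Ifi211. The cells were malignant epithelial cells of a pancreatic tumour in a KPC-Brca1 mouse, kept as a short-term explant culture. There were 3 replicate plates exposed to 0.5 µM DAC for 48 h and 3 untreated plates of the same culture, so both groups share the tumour genotype. The alleles of this tumour, the driver of any Cre, its Brca1 state and the strain and age of the mouse are not given in the sources used here. All plates come from 1 culture, so a p-value here sets the effect of DAC against plate-to-plate variation, which may be technical, and not against variation between tumours.

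Ifi200 genes, also called PYHIN genes, encode proteins with a HIN domain, which binds DNA, and mostly with a pyrin domain, which binds other proteins. They lie side by side on mouse chromosome 1 and are best known from leukocytes, where several act as sensors of DNA in the cytosol or nucleus. The other Ifi genes share only the way they were found: Ifi47 encodes a GTPase that acts against intracellular pathogens, Ifi30 a lysosomal thiol reductase that helps antigen processing, Ifi35 a leucine zipper protein that pairs with Nmi, Ifi44 a cytoplasmic antiviral protein and IFI27 a small hydrophobic protein. Type I interferons act on such genes through a complex that holds Stat2 and Irf9 and binds the interferon-stimulated response element (ISRE), and interferon gamma through the gamma-activated sequence (GAS).

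Promoter windows show what these genes share in sequence. RefSeq windows (GRCm38.p6) of 250 bases before and 50 after the annotated gene start were found for 8 of the 10 members (not Ifi204 or IFI27) and for 12 of 13 Ifi200 family genes, members included. They were searched on both strands for the ISRE core, which is GAAA, any 2 bases and GAAA again, and for the GAS letters TTCNNNGAA, and in none of the windows looked at did matches of the 2 motifs overlap. The ISRE core was found in 9 of the 12 family genes with a window, against 3.44% of all 32851 windows. In 7 of these genes the letters were GAAATCGAAA and in 2 GAAATTGAAA. The family genes are duplicates of each other and not independent in sequence. The windows below are printed because they show the element in an Ifi200 gene that rose by the test described further on (Ifi203, Ifi205, Ifi207) and in one that was not detected (Ifi211), and 2 genes that rose with no match (Ifi202b, Ifi47). Capitals mark the ISRE core in either direction.
Ifi203, chr1:173942443-173942742, minus strand: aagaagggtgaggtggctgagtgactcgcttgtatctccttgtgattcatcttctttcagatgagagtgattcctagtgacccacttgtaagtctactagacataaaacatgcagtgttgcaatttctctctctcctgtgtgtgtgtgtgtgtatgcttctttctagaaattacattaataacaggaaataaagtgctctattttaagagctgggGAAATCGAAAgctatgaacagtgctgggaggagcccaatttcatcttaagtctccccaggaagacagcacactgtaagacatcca
Ifi205, chr1:174031706-174032005, minus strand: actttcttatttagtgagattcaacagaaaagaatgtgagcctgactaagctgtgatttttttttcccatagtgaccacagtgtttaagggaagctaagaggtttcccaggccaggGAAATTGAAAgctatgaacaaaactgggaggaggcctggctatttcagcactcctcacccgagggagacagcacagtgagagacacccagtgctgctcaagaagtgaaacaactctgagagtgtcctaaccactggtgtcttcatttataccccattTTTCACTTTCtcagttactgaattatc
Ifi207, chr1:173741760-173742059, minus strand: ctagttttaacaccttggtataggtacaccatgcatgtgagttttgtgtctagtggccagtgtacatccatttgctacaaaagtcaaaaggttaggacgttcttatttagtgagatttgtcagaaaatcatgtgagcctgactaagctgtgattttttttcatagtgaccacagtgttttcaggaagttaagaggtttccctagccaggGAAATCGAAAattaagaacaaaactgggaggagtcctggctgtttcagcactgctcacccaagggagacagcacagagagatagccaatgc
Ifi211, chr1:173912997-173913296, minus strand: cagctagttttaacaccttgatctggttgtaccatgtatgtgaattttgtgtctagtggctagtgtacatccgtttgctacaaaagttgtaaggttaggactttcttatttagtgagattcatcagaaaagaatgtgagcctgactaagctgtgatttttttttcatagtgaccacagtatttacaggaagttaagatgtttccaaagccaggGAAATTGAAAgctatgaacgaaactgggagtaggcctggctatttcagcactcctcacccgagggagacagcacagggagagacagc
Ifi202b, chr1:173982795-173983094, minus strand: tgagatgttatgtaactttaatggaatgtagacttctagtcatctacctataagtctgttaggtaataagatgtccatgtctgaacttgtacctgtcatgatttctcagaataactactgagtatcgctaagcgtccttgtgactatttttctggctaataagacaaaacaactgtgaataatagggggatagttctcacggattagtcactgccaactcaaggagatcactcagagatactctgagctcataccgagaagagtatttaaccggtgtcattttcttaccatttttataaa
Ifi47, chr11:49076337-49076636, plus strand: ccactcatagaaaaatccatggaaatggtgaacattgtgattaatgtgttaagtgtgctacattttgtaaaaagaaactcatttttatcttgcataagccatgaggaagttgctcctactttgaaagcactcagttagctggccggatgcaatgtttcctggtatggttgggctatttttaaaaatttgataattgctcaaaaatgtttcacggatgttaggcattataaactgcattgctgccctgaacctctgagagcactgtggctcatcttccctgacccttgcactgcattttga

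Ifi203 has 2 windows, 1 of them with the core, which began 35 bases before the annotated start. It began 41 bases before the start in Ifi207 and 37 bases before it in Ifi211. Ifi205 had 1 match 134 bases before the start and another, in the reverse direction, 23 bases after it. Ifi202b, Ifi30, Ifi35, Ifi44 and Ifi47 had no ISRE match, which says only that these letters are not in these windows. GAS letters, present in 8.3% of all windows, were found in Ifi202b and Ifi35. The windows of the members held 1 to 11 CG dinucleotides, and those of the Ifi200 family 1 to 5, against a median of 7 over all windows. At most 5 CG were found in 43.6% of all windows, so few CG in a window is common on this measure.

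Of the 10 member genes, 9 were measured and 8 of these rose with DAC, none fell, and Ifi204 did not pass the test. RNA was measured on Illumina bead arrays as mean bead intensity, corrected for background, quantile-normalised and put on a log2 scale. Probes entered the test where 3 or more of the 6 arrays gave a detection p under 0.05, and 11 of the 17 member probes did so. Each gene was represented by its brightest tested probe, and limma compared DAC with untreated plates over 14155 genes with Benjamini-Hochberg adjustment at 0.05. By this rule 10.1% of all genes were higher with DAC and 7.21% lower (17.3% in all), with a median log2 fold change of -0.02 over all genes and 1.58 over the 9 measured members. Ifi44 passed the filter through DAC arrays alone and Ifi205 needed them, which favours a rise. The 6 members detected on all 6 arrays all rose. An adjusted p under 0.05 together with a fold change of at least 2 was reached by 5 members, IFI27, Ifi35, Ifi47, Ifi202b and Ifi203, against 3.58% of all genes. Without any filter 7 of the 10 members were called higher, beside 4.6% of 28903 genes, and the members' median was 1.24.

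Between 43.9% and 47.4% of the probes were detected per array, with a median of 44 or 45 beads per probe. The lowest share was that of untreated replicate 1. Its mean raw intensity was the highest, at 460 against 313 to 361 on the other arrays. Standard errors over the beads of the member probes were 2.82% to 6.99% of their intensity. Untreated replicates 2 and 3 lay close together (r = 0.998 over tested genes), and untreated replicate 1 stood apart from both, at r = 0.982 and 0.981. Without it 8 member genes were called higher, beside 17.8% of all genes. With untreated replicates 2 and 3 averaged into 1 sample 7 member genes were, beside 6.57% of all genes.

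**Figure D1:**
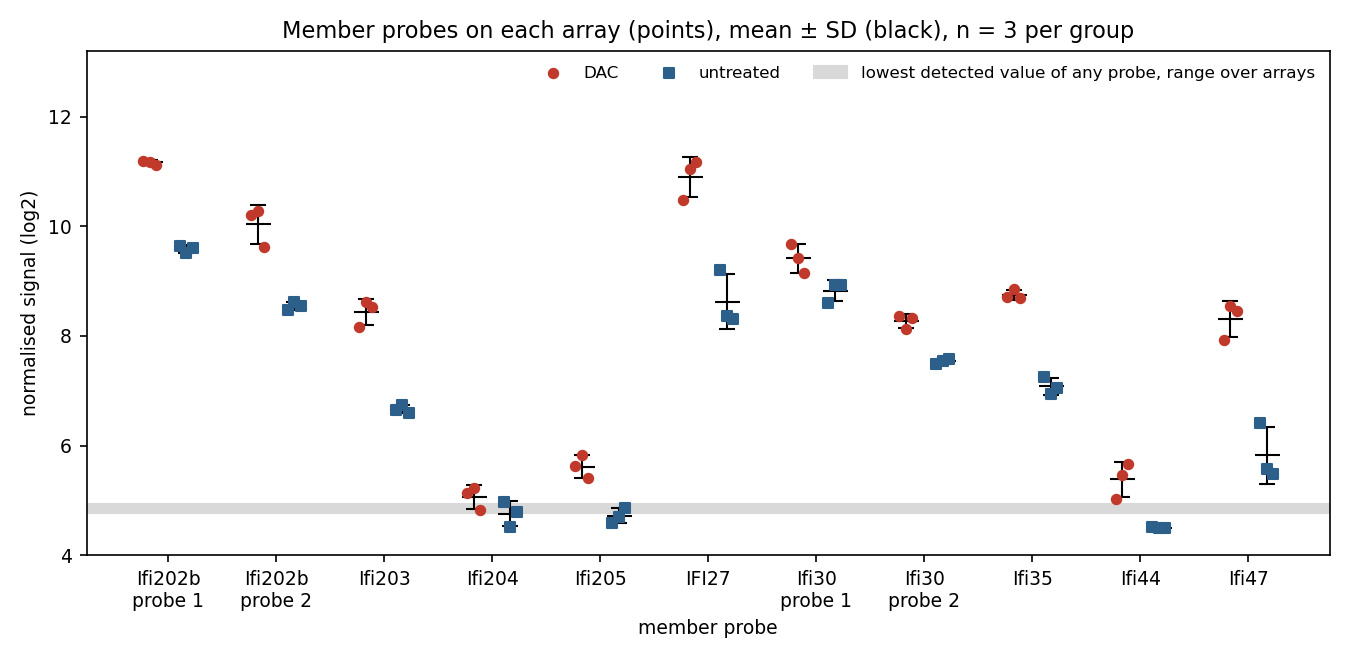
Normalised log2 signal of the 11 member probes that passed the filter on each of the 6 arrays, DAC plates (circles) left of untreated plates (squares), with mean and SD in black and the range of the lowest detected value of any probe in grey. The groups do not overlap for any probe but that of Ifi204, whose values, like those of untreated plates for Ifi205 and Ifi44, lie at or near the grey band.

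Ifi202b, which encodes a HIN protein without a pyrin domain that inhibits Aim2 in mice, was clearly expressed in untreated plates. Its brighter probe read 11.20, 11.18 and 11.11 on a log2 scale in DAC replicates 1 to 3, against 9.65, 9.50 and 9.60 in untreated replicates 1 to 3. The groups were far apart and each was tight. The log2 fold change was 1.58 ± 0.11 (SE, n = 3 per group), or 2.99-fold (adjusted p = 4e-05, limma). A second Ifi202b probe read 10.21, 10.28 and 9.62 in DAC plates and 8.48, 8.62 and 8.55 in untreated plates. DAC replicate 3 was the low one here, but still above every untreated plate, and the probe rose by 1.48 ± 0.18 (adjusted p = 0.00187, limma over all probes). The remaining Ifi202b probe was detected on no array.

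Ifi203, a neighbour of Ifi202b in the cluster, has 1 probe on the array. Its log2 signal was 8.16, 8.61 and 8.54 in DAC plates and 6.64, 6.74 and 6.60 in untreated plates. DAC replicate 1 was the lowest treated plate, and the groups did not overlap. The rise of 1.77 ± 0.14 (log2, SE), or 3.42-fold, had an adjusted p of 0.000114 (limma). 

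Ifi205, a HIN gene best known from mouse macrophages, was dim. It was detected on 3 of 3 DAC arrays and on 1 of 3 untreated arrays, with log2 values of 5.62, 5.83 and 5.41 in DAC plates and 4.59, 4.71 and 4.86 in untreated plates. Every treated plate lay above every untreated one, and the rise was 0.90 ± 0.14 (adjusted p = 0.00416, limma). At this level the size depends on the background: with an offset of 50 in place of 16 it was 0.46, and with no background removed 0.41, both past the threshold. Of the 2 other Ifi205 probes, 1 was detected on a single DAC array and 1 on no array.

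Ifi204, the mouse gene whose product p204 senses DNA and signals through Sting1, did not pass the test. Its log2 signal was 5.14, 5.23 and 4.82 in DAC plates and 4.97, 4.51 and 4.80 in untreated plates. It was detected on 2 of 3 arrays in both groups, and the groups overlapped. The difference was 0.30 ± 0.16 (adjusted p = 0.241, limma), with a 95% interval of -0.07 to 0.68, which leaves room for a small rise. The second Ifi204 probe was detected on no array. Ifi211, a pyrin and HIN gene known from myeloid cells, was not detected either: its single probe had intensities of 44.2, 43.2 and 41.3 in DAC plates and 42.9, 39.8 and 41.5 in untreated plates, and its lowest detection p was 0.786.

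Other genes of the Ifi200 family were looked up on the array, and 4 names were found. Ifi207, listed as AI607873, read 10.93, 10.40 and 10.27 in DAC plates and 8.22, 8.75 and 8.67 in untreated plates. It rose by 1.99 ± 0.21, or 3.96-fold (adjusted p = 0.000507, limma), with DAC replicate 1 the highest treated plate and untreated replicate 1 the lowest untreated plate. Aim2, which binds DNA and starts an inflammasome, was detected on all arrays and did not pass, at -0.14 ± 0.17 (95% interval -0.52 to 0.25; adjusted p = 0.615, limma). Its second probe was at 0.24 ± 0.13. Ifi209 and E430029J22RIK, a name that RefSeq lists for both Ifi208 and Ifi213, were detected on no array. Relatives in this family are alike in sequence and a probe may bind the transcript of another, so single members are uncertain in that respect.

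The cluster spans 682 kb from Aim2 to Ifi205 on chromosome 1 (GRCm38.p6, 173349547 to 174031755), with 19 annotated genes, pseudogenes and a tRNA gene included. Array names cover 10 of them, and 6 were measured. In this order Aim2 did not pass, Ifi207 rose, Ifi204 did not pass, and Ifi203, Ifi202b and Ifi205 rose. Called genes and others thus stood next to each other, although the differences between neighbours were not tested. Ifi204 was dim, detected on 2 of 3 arrays in each group, which limits what its value can show. Of the 5 annotated genes on each side of the cluster, only Fcer1a, a chain of the IgE receptor, was measured, at -0.06 ± 0.17 (adjusted p = 0.854, limma).

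**Figure D2:**
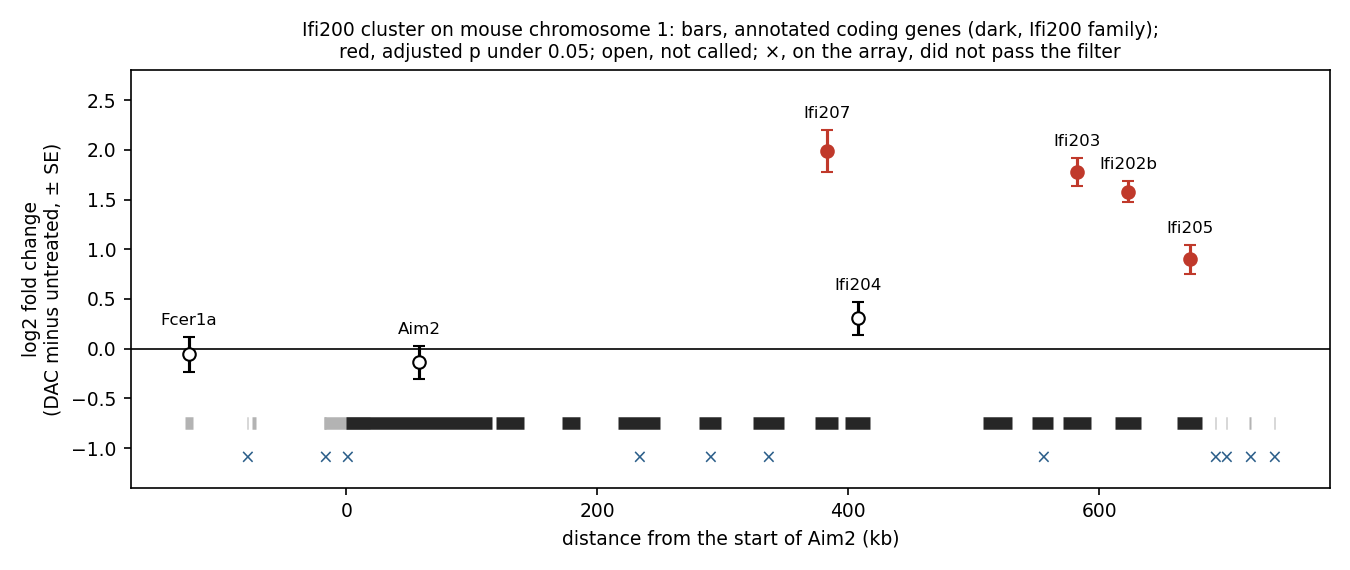
Log2 fold change (DAC minus untreated, ± SE, n = 3 per group) of measured genes against distance in kb from the start of Aim2, with bars for annotated coding genes and crosses for those on the array that did not pass the filter (Ifi208 and Ifi213 share a name there). Ifi207, Ifi203, Ifi202b and Ifi205 lie between 0.90 and 1.99, while Ifi204, Aim2 and Fcer1a lie between -0.14 and 0.30. The signal of Ifi204 was near the detection limit.

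Ifi47, the immunity-related GTPase also called IRG-47 or Irgd, had the highest fold change of the measured members in this fit. Its log2 signal was 7.93, 8.54 and 8.46 in DAC plates and 6.41, 5.57 and 5.48 in untreated plates. DAC replicate 1 was the lowest treated and untreated replicate 1 the highest untreated plate, and the groups stayed apart. The rise was 2.49 ± 0.27, or 5.62-fold (adjusted p = 0.000573, limma), and with no background removed 1.78, below the 2.14 of IFI27 there. Of 5 measured genes of the same GTPase family, Ifi47 included, 4 rose and none fell, against 10.1% and 7.21% of all genes. Iigp1, also of this family, was on the array and detected on none of the 6 arrays. Igtp rose by 2.52 ± 0.11, Irgm2 by 2.32 ± 0.13 and Irgm1 by 1.36 ± 0.18, whereas Irgq, a relative that interferon is not known to induce and that was named after its value was seen, was at -0.47 ± 0.19 (adjusted p = 0.122, limma).

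The probe named IFI27 rose almost as much, and its name needs care. IFI27 matches the current symbol Ifi27 and also an older name of Ifi27l2a, known as Isg12, which has no other name on the array. The array lists the gene now called Ifi27 a second time, under its older name D12ERTD647E, with 2 probes. The probe named IFI27 read 10.49, 11.04 and 11.17 in DAC plates and 9.21, 8.37 and 8.31 in untreated plates. As for Ifi47, DAC replicate 1 was the lowest treated and untreated replicate 1 the highest untreated plate. The log2 fold change was 2.27 ± 0.27, or 4.83-fold (adjusted p = 0.00104, limma).

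The 2 probes named D12ERTD647E did not pass the test. The brighter read 12.29, 12.45 and 12.45 in DAC plates and 12.46, 12.33 and 12.38 in untreated plates, a difference of 0.01 ± 0.11 (adjusted p = 0.984, limma), and the other was at 0.25 ± 0.12. If both names are merged under Ifi27, the brighter probe stands for the gene, the rise of the probe named IFI27 is no longer seen, and the median of the measured members is 0.90. Ifi27l2b, another gene of this family, rose by 1.63 ± 0.26, or 3.09-fold (adjusted p = 0.00451, limma), and by 1.00 with no background removed. Which transcript the probe named IFI27 binds cannot be settled from the files.

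**Figure D3:**
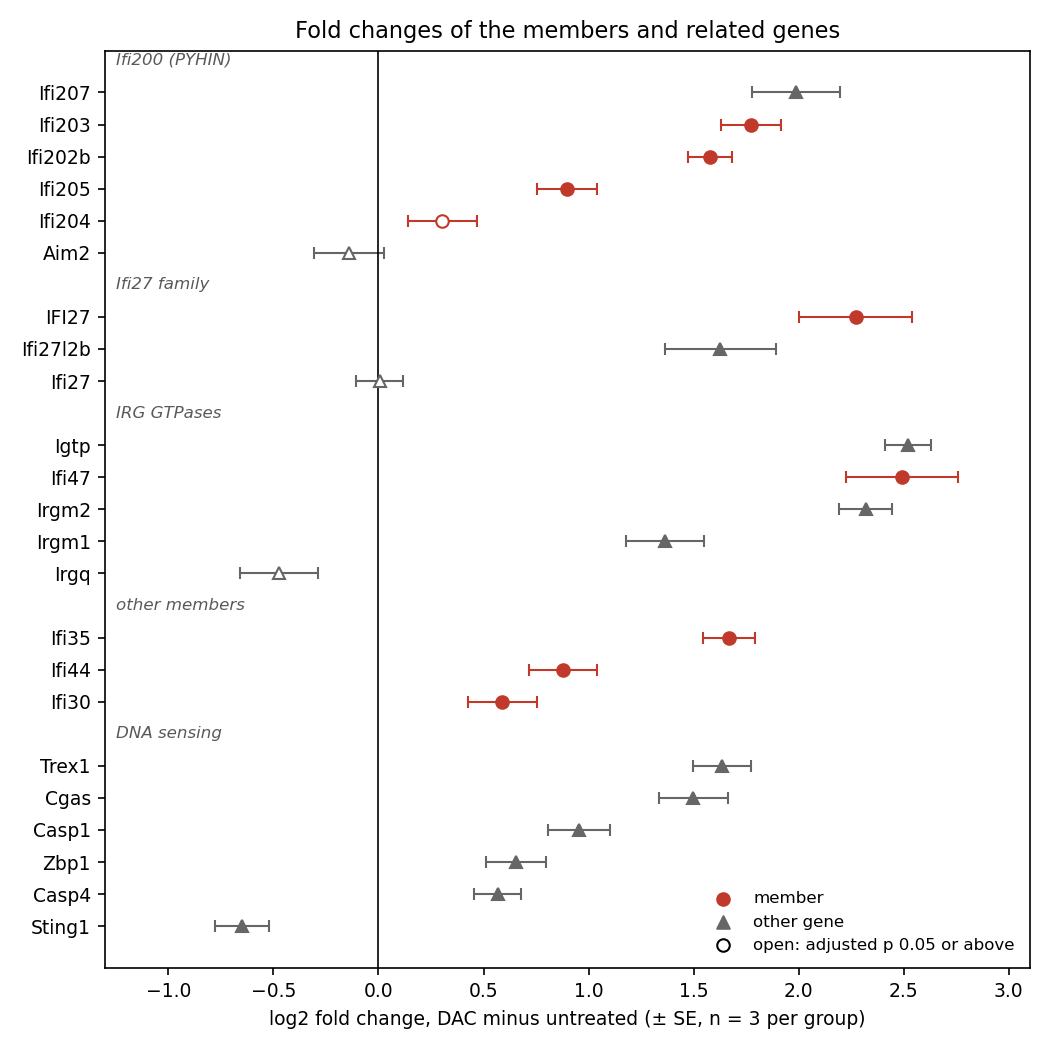
Log2 fold change (DAC minus untreated, ± SE, n = 3 per group) of the measured members (circles) and of related genes (triangles), with open symbols where the adjusted p was not under 0.05. Members range from 0.30 for Ifi204 to 2.49 for Ifi47, and Sting1 is the called gene below 0, at -0.65.

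Ifi35 rose with little spread. Its log2 signal was 8.71, 8.85 and 8.69 in DAC plates and 7.25, 6.95 and 7.04 in untreated plates. No treated plate came near an untreated one, and the rise was 1.67 ± 0.12, or 3.18-fold (adjusted p = 7.02e-05, limma). Its partner Nmi was on the array and detected on none of the 6 arrays.

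Ifi44 was detected on DAC arrays only. Neither of its 2 probes was detected on any untreated array, where the tested probe read 4.50 to 4.51, and it was detected on all 3 DAC arrays at 5.04, 5.46 and 5.66. At these settings it was at least 1.47-fold higher with DAC, against the higher of its own value and the lowest detected value of any probe on each untreated array. This bound was not itself tested. Measured means were 5.38 ± 0.32 in DAC plates and 4.51 ± 0.003 in untreated plates (log2, SD, n = 3). The fitted rise was 0.88 ± 0.16 (adjusted p = 0.00841, limma), and it was 0.42 with the offset of 50 and 0.41 with no background removed. Ifi44l, its neighbour and relative on chromosome 3, was detected on no array.

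Ifi30 rose modestly, and its call was lost in more alternatives than that of any other called member. Its brighter probe read 9.67, 9.42 and 9.15 in DAC plates and 8.61, 8.93 and 8.94 in untreated plates. DAC replicate 3 came close to the untreated plates without overlap, and the rise was 0.59 ± 0.16 (adjusted p = 0.0423, limma). The second Ifi30 probe read 8.37, 8.13 and 8.34 in DAC plates and 7.49, 7.54 and 7.59 in untreated plates, and rose by 0.74 ± 0.12 (adjusted p = 0.00578, limma over all probes). Over all probes the brighter one had an adjusted p of 0.0513. Its gene-level call was lost without DAC replicate 1 (0.46), DAC replicate 2 (0.59), untreated replicate 2 (0.64) or untreated replicate 3 (0.64).

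In that fit over all 21415 tested probes, 9 of the 11 member probes were higher with DAC and none lower, against 8.34% and 6.62% of all probes. In 8 of the 9 measured members the lowest DAC value exceeded the highest untreated value, as in 17.4% of all genes.

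The spread within groups was not the same for all members. For IFI27 and Ifi47, DAC replicate 1 lay 0.41 and 0.38 below the mean of the DAC plates, and untreated replicate 1 lay 0.58 and 0.59 above the mean of the untreated plates. Ifi27l2b and Irgm1 deviated the same way, so that both groups drew nearer in their replicates numbered 1. Ifi30 and Ifi207 deviated the opposite way, with DAC replicate 1 above its group by 0.26 and 0.39 and untreated replicate 1 at -0.22 and -0.33 from the mean of its group. Over all tested genes, deviations of DAC replicate 1 and untreated replicate 1 correlated at -0.61. Opposite deviations of these plates are thus not particular to the genes named. For the brighter Ifi202b probe no plate deviated from its group by more than 0.08, unlike the second one, whose DAC replicate 3 was low.

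**Figure D4:**
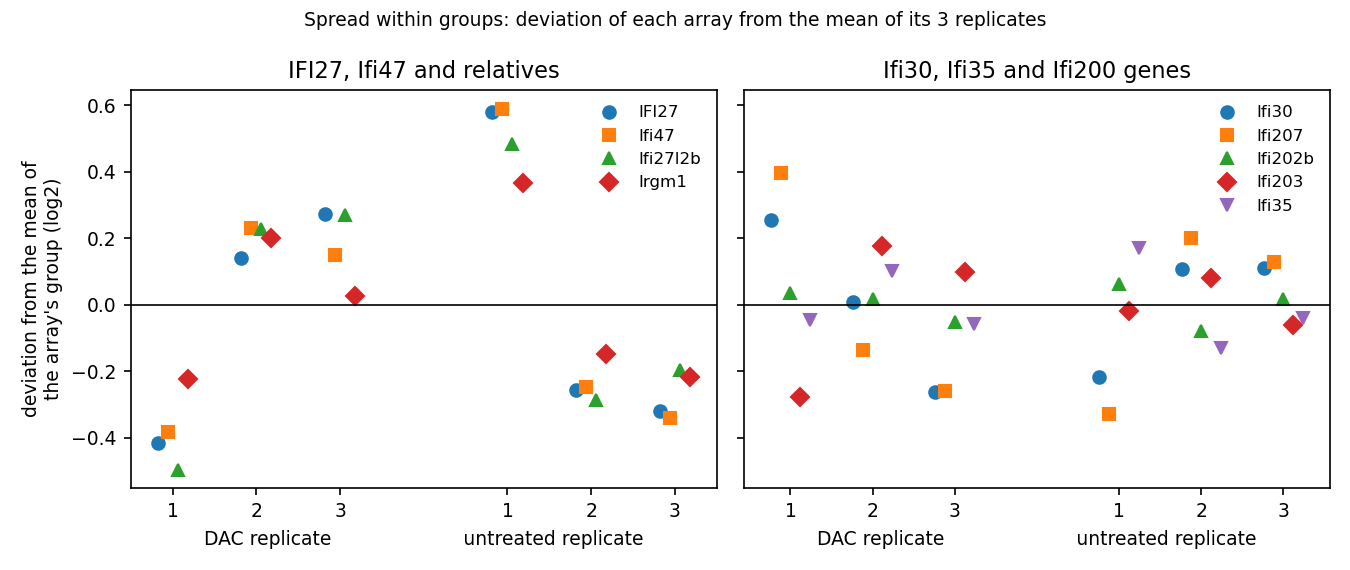
Deviation of each array from the mean of its group (log2) for 9 genes, DAC replicates left of untreated replicates in each panel. IFI27, Ifi47, Ifi27l2b and Irgm1 are low in DAC replicate 1 and high in untreated replicate 1 (left), while Ifi30 and Ifi207 are the reverse (right).

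Genes that work beside the members moved in part. Of 11 measured genes of cytosolic DNA sensing and inflammasomes, 5 rose and 1 fell, against 10.1% and 7.21% of all genes. Trex1, the exonuclease that degrades cytosolic DNA, rose by 1.64 ± 0.14, and Cgas, the enzyme that turns DNA contact into the messenger cGAMP, rose 2.83-fold. Casp1, the inflammasome protease, passed the filter through DAC arrays alone, which favours a rise, and was at least 1.30-fold higher at these settings. Its fitted change of 0.95 was 0.42 with the offset of 50 and 0.62 with no background removed. Casp4, the protease that responds to cytosolic lipopolysaccharide, rose by 0.57 ± 0.11, and Zbp1, a sensor of Z-form nucleic acids, by 0.65 ± 0.14. The Casp4 call was lost in 7 of 18 alternatives, among them median scaling, the mean of its probes (0.43) and leaving out DAC replicate 2 (0.51), untreated replicate 2 (0.57) or untreated replicate 3 (0.54). Sting1, the adaptor downstream of Cgas and Ifi204, fell by 0.65 ± 0.13 (adjusted p = 0.0114, limma). Zbp1 and Sting1 were named after their values were seen, and no alternatives were run for them.

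Factors that act on interferon-stimulated genes rose in part too. Of 15 measured, 7 rose and 1 fell, against 10.1% and 7.21% of all genes, with a median log2 fold change of 0.40. Irf7 rose by 3.48 ± 0.13 (2.78 with no background removed), Usp18, which limits interferon signalling, by 2.86 ± 0.13 and Irf9 by 1.02 ± 0.11. Ifnar2 and Jak1, a receptor chain and a kinase of the pathway, did not pass, at -0.22 ± 0.12 and 0.17 ± 0.13, and Jak2, named like these 2 after its value was seen, fell by 0.41 ± 0.12. In the lysosome, where the Ifi30 product works, 1 of 8 measured proteases and class II chaperones rose and 1 fell, with a median of 0.01. These were H2-DMa, at 0.45 ± 0.11, and the protease gene Lgmn, at -0.59 ± 0.15. Over all genes 10.1% rose and 7.21% fell, so 1 of 8 each way is close to the share over all genes. The H2-DMa call was lost in 10 of 18 alternatives, among them leaving out any 1 array other than untreated replicate 1 (0.41 to 0.51). It was also lost with the offset of 50 (0.24) and with no background removed (0.20). The Lgmn call was lost without DAC replicate 2 or 3 (-0.55, -0.53) or untreated replicate 2 or 3 (-0.52, -0.55).

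Because Ifi200 genes are known from leukocytes, markers of other cell types are given beside them. Of 16 macrophage and leukocyte markers on the array, 10 were detected on no array, Ptprc, Adgre1, Itgam and Tyrobp among them, and 4 on all arrays. The summed normalised intensity of all 16, undetected ones included, was 1635 to 1760 in DAC plates and 1874 to 1945 in untreated plates. Cd14 weighed most in this sum, with a mean log2 signal of 9.74 in DAC plates and 10.35 in untreated plates. The lower sum with DAC thus says little of the other markers. Of the 5 measured, Fcgr3 and Laptm5 rose (by 1.24 ± 0.13, and at least 3.93-fold at these settings) and Cd14 fell by 0.60 ± 0.11. Cd68, named after its value was seen, and Coro1a did not pass, at 0.09 ± 0.13 and 0.76 ± 0.24. Coro1a was called higher in 3 of 18 alternatives. Laptm5 had a fitted change of 2.45, which was 1.42 with the offset of 50 and 1.36 with no background removed. Of 9 fibroblast markers 6 were detected on no array, Dcn and Lum among them, and 2 of the 3 measured rose, Col1a1 by 2.22 ± 0.25 and Acta2 by 2.23 ± 0.23, or 1.28 as the mean of its tested probes. Pdgfra, also measured, did not pass, at 0.27 ± 0.21 (adjusted p = 0.418, limma), and was called higher in 1 of 18 alternatives. The summed intensity of all 9, undetected ones included, was 1384 to 1831 in DAC plates and 458 to 493 in untreated plates. Col1a1 weighed most in this sum, followed by Acta2. The higher sum with DAC thus says little of the other fibroblast markers. The part of these markers in the members' changes was not tested. Of 6 endothelial markers 5 were detected on no array and Esam rose by 1.14 ± 0.14, and of 4 acinar markers 3 were detected on no array and none was called. Of 7 epithelial markers 6 were detected on all arrays, among them Krt8, Krt18, Krt19 and Cdh1, while Epcam was detected on none. Cldn4, a tight junction claudin, rose by 1.75 ± 0.12 (adjusted p = 4.45e-05, limma), and Krt7 fell by 0.47 ± 0.13 (adjusted p = 0.0448, limma), a call lost without DAC replicate 2 or 3 (-0.43, -0.40) or untreated replicate 2 or 3 (-0.44, -0.43). Summed epithelial intensity was 30311 to 34206 in DAC plates and 26031 to 31506 in untreated plates. Beside the calls among these markers, 10.1% of all genes were higher with DAC and 7.21% lower. In such bulk samples, more cells with a transcript and more of it per cell cannot be told apart.

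The genes outside the members whose values followed theirs most closely were named by correlation with the mean profile of the 6 members detected on all arrays, as a description over 6 arrays that share the contrast of DAC with untreated. These were LOC640739, Gldc, Stag3, Bgn and Bcl2l15, with Pearson r of 0.9990 to 0.9996. Gldc encodes a subunit of the glycine cleavage system, Stag3 a cohesin of meiosis and Bgn the matrix proteoglycan biglycan. All 5 were higher with DAC, by 0.94 ± 0.12 (Gldc) to 2.76 ± 0.17 (Stag3).

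**Figure D5:**
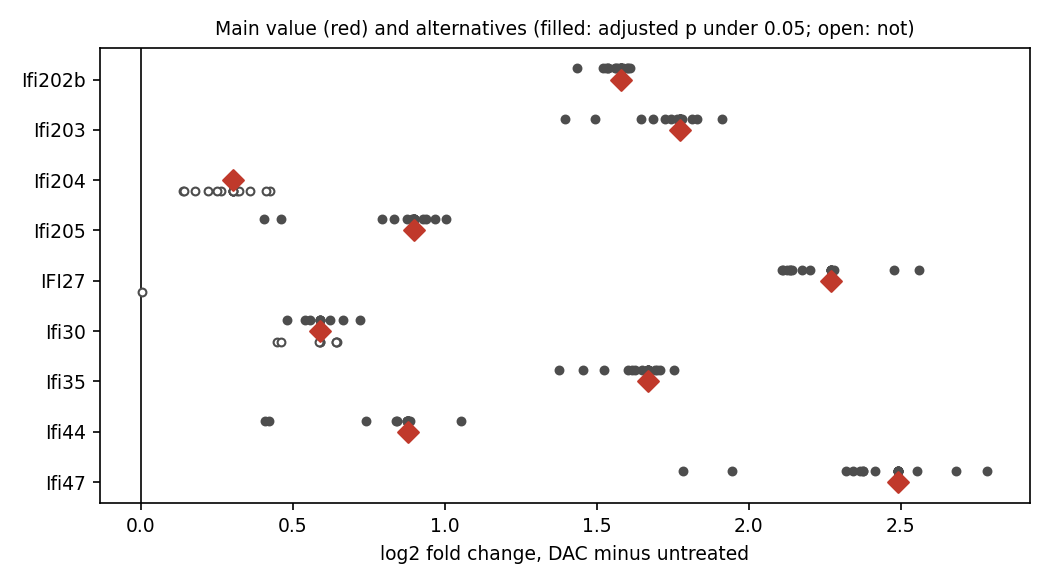
Log2 fold change (DAC minus untreated) of each measured member in the main analysis (diamond) and under each alternative processing (filled points, adjusted p under 0.05; open points, not). Ifi202b stays between 1.43 and 1.61, Ifi30 loses its call in part, and IFI27 falls to 0.01 in the alternative that merges 2 array names.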

How the data were processed

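Illumina bead arrays of 3 DAC and 3 untreated plates were analysed. Per the labels' protocols, RNA was extracted with Trizol and labelled with an Ambion MessageAmp kit. Per the file headers, the deposited table gives each probe's mean bead intensity, a bead standard error, a count of beads and a detection p-value. It was not background-subtracted, and the scanner software is not given in the sources used here. A second deposited table was not used, since its identifiers are not paired with gene names. Intensities were processed with limma 3.58.1 in R 4.3.3 by the steps of neqc (negative controls inferred from the detection p-values, offset 16, quantile normalisation, log2) and tested with lmFit and eBayes, without covariates. Array names were matched to RefSeq (GRCm38.p6): of 30854, 16223 matched a symbol and 5684 a synonym of a single gene. The probe named IFI27 was kept apart. The fit was tested on simulated data with independent noise per gene and array, which lack the shared deviations of these plates. Named genes were all members, all measured Ifi200 relatives, the 4 genes with the lowest p of each other list, measured genes among 5 on each side of the cluster and the 5 most alike in profile. Members and lists were chosen with earlier results of these data known. Alternatives covered background, scaling, filter, probe choice, replicate block and each array left out. Values of 1 gene of the interferon list are not reported here. The number of arrays limits the precision.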

Additional observations from a re-analysis of the deposited data

How the results depend on the processing

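Member genes called higher numbered 6 to 8 over all 18 alternatives, and none was called lower in any of them. The 6 came from requiring detection on all 6 arrays, which tests 6 members, and of the member probes 6 to 10 were called. Ifi202b, Ifi203, Ifi205, Ifi35, Ifi44 and Ifi47 kept their direction and their call wherever they were tested, and Ifi204 and Aim2 were called in none. Ifi30 lost its call in 8 of 18 alternatives, including median scaling, which moved the median of all genes from -0.02 to -0.12. Merging the probe named IFI27 with D12ERTD647E, an alternative chosen after seeing the data, ended that call (adjusted p = 0.984) because the brighter probe then stood for the gene. Over all genes 2451 were called, 1430 higher and 1021 lower. With median scaling 908 were higher and 967 lower. With untreated replicates 2 and 3 averaged 1321 were called, 930 higher and 391 lower. Leaving out 1 array at a time gave 1233 to 4695 called genes, 891 to 2525 higher and 342 to 2170 lower, the most without untreated replicate 1. Residuals of same-numbered plates correlated at -0.61, -0.11 and -0.48, and those of differently numbered plates at -0.46 to 0.56. Deviations from a mean of 3 plates are tied to each other, so these values cannot show whether plates were paired. A fit with replicate number as a block called 876 genes, 699 higher and 177 lower, among them 7 member genes, and 6 member probes were called against 9 without it. The causes of these shifts were not tested. Dim probes limit Ifi204, Ifi205 and Ifi44, whose untreated signal lay at the detection limit.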
